A study of Mus musculus with 6 samples.

Results

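Receptor and ligand genes of the natural killer (NK) gene complex, 10 in number, were followed across blood cell classes with and without Stag2. The genes were Klrb1a, Klrb1b, Klrb1c, Klrk1, Klrd1, Klre1, Klra4, Klra7, Klra8 and Clec2i, which is 10 of the 18011 genes in the deposited tables, where they stand in capitals as KLRB1A, KLRB1B, KLRB1C, KLRK1, KLRD1, KLRE1, KLRA4, KLRA7, KLRA8 and CLEC2I. All 10 were in the tables of all 6 samples. The list was drawn up with knockout to wild type results of these same tables known. The knockout to wild type differences of these genes are therefore given below as a description, with fitted values and standard errors but no p-value.

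The data were single-cell RNA sequencing of mouse lineage-negative (Lin-) haematopoietic stem and progenitor cells, with 3 Stag2 knockout samples (KO1, KO2 and KO3) and 3 wild type samples (WT1 to WT3). STAG2 protein is part of cohesin, which extrudes chromatin loops and pairs sister chromatids, and the comparison addresses what its loss changes in blood cells. The labels name the groups by genotype alone (Stag2 KO and Stag2 wt), and give no allele, Cre driver, strain, age or treatment. The replicate numbers follow the order of the records and pair nothing.

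The NK gene complex is a cluster of C-type lectin-like genes on mouse chromosome 6. Its receptors sit on NK cells and some T cells and read either self molecules, which mostly restrain the cell, or signs of infection and stress, which activate it. Ly49 receptors, encoded by the Klra genes, bind class I MHC or related molecules and are switched on in some NK cells and not in others, so that single cells carry different combinations. The Klrb1 genes encode NKR-P1 receptors, whose ligands are the Clr proteins encoded by neighbouring Clec2 genes. NK cells gain Ly49 receptors as they mature.

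On GRCm38 the 10 genes span 1.62 Mb, from 128609227 to 130233322 on chromosome 6. Klrb1a (128609227 to 128623533, minus strand), Klrb1c (128778485 to 128789215, minus), Klrb1b (128813706 to 128826331, minus) and Clec2i (128887588 to 128898167, plus) lie at one end. Klre1 (129577905 to 129585827, plus), Klrd1 (129591782 to 129598775, plus) and Klrk1 (129610323 to 129623864, minus) lie between. Klra4 (130043731 to 130067271, minus), Klra8 (130115226 to 130129898, minus) and Klra7 (130218605 to 130233322, minus) lie at the other end. The labels do not name the build behind the counts, and positions are from GENCODE M21. The Klra genes, like the Klrb1 genes, are close relatives, so how reads were shared between them could not be checked. The gene BC035044 lies on the opposite strand across the start of Clec2i (128849090 to 128891126, minus), and whether strand was used in counting is not given.

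The 3 Klra genes differed between the genotypes in the same direction, and their upstream sequences are shown to let a reader see how alike these genes are. Each is the 250 bases before the annotated start on the minus strand of GRCm38.p6, from RefSeq, which held an entry for 9 of the 10 genes. Capitals mark the 3 stretches of at least 10 bases that all 3 sequences share exactly, 36 bases in all.
Klra4, chr6:130067272-130067521: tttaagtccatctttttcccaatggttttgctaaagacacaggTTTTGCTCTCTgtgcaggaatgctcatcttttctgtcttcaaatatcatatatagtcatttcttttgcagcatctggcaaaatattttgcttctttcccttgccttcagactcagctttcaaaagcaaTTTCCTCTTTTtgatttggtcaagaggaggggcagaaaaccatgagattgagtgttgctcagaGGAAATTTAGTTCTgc
Klra8, chr6:130129899-130130148: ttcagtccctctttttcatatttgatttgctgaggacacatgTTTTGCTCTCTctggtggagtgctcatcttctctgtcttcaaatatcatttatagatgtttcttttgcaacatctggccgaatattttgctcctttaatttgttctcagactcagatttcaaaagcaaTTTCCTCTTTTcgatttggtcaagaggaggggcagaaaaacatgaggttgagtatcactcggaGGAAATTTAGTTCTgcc
Klra7, chr6:130233323-130233572: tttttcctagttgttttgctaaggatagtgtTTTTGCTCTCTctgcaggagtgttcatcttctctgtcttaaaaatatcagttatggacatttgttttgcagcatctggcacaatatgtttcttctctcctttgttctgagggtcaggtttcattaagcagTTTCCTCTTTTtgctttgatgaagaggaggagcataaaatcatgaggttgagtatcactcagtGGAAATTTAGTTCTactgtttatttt
After global alignment Klra4 and Klra8 were identical at 84.5% of positions, Klra4 and Klra7 at 74.0%, and Klra8 and Klra7 at 75.2%. The same windows of Klrb1b and Clec2i matched those of the Klra genes at 43.7% to 45.9%. The stretch GGAAATTTAGTTCT near the start was found in 5 of 32536 upstream windows in the table, and all 5 belonged to Klra genes. Neither a RUNX motif (TGTGGT, either strand, in 14.0% of all windows) nor a T-box motif (TCACAC, either strand, in 12.1%) occurred in the windows of Klra4, Klra8, Klra7, Klrb1b or Clec2i.

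Levels are in CPM, the raw counts of a gene summed over the cells of a class in a sample relative to all counts of those cells. Classes were named from marker genes and clustered without any gene of the complex, and a name such as NK-like means only that the fixed markers were raised. Although the samples are labelled as stem and progenitor cells, 1272 of the 23416 kept cells were NK-like and 1808 were T-like. NK-like cells numbered 260, 170 and 160 in KO1 to KO3 and 136, 219 and 327 in WT1 to WT3, with median depths of 2131 to 3270 unique molecular identifiers (UMIs) per cell. WT3 was the shallowest library, with a median of 3462 UMIs over its kept cells against 4288 to 5896 in the others. Stag2, which checks the labels, was 25.2, 23.5 and 19.9 CPM over all kept cells of the knockout samples and 53.4, 43.3 and 42.8 CPM in the wild type samples, with no overlap. Stag2 RNA was thus lower but not absent in the knockout samples. How many cells of each class had lost Stag2 was not tested. Between 11 and 48 cell barcodes were shared by any 2 libraries.

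In NK-like cells the activating Ly49 genes Klra4 and Klra8 and the inhibitory Klra7 were lower in all knockout samples than in any wild type sample, and Klrb1b and Clec2i were higher. Klrb1c, Klrd1 and Klrb1a overlapped between the genotypes. In the fit over all 5574 genes tested, 2 of the 10 genes passed an adjusted p of 0.05 upward and 4 downward, where 0.771% and 1.35% of all genes did (2.12% in either direction). The groups did not overlap for 7 of the 10, above for 2 and below for 5, where 9.81%, 6.48% and, together, 16.3% of all genes were so. Since the genes were chosen for this contrast, nothing is read from that count. Their median log2 difference was -0.23 and that of all genes 0.01.

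**Figure D1:**
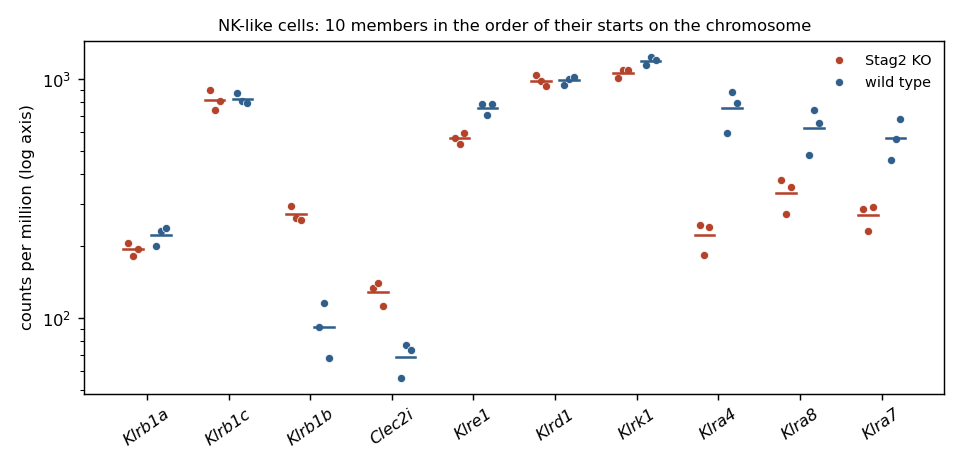
Level of each of the 10 genes in NK-like cells (CPM, log axis), in chromosome order; points are samples and bars are means of 3. The knockout points lie above the wild type points for Klrb1b and Clec2i and below them for Klre1, Klrk1 and the 3 Klra genes.

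Klra4, which encodes the activating receptor Ly49D, had the largest fitted difference of the 10 genes in NK-like cells. It stood at 245, 183 and 239 CPM in the knockout samples (KO1 to KO3), against 594, 879 and 793 CPM in the wild type samples in the same order. The highest knockout sample was below the lowest wild type sample, and the fitted log2 difference was -1.81 ± 0.14 (SE). The wild type sample with the lowest level, WT1, is also the only one whose title shares the prefix XA with the knockout samples. With the knockout samples set against WT1 alone, a fit that assumes this lone sample to vary as the knockout samples do, the difference was -1.51.

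Klra8 encodes Ly49H, the activating receptor known for recognising a cytomegalovirus protein. It was at 376, 271 and 354 CPM in the knockout samples and 477, 736 and 655 CPM in the wild type samples, a log2 difference of -0.95 ± 0.14. The groups did not overlap, but WT1 was again the nearest to the knockouts, and the difference against WT1 alone was -0.61, more than 1.5 times smaller. Klra7, which encodes the inhibitory receptor Ly49G2, was at 284, 230 and 291 CPM against 458, 556 and 678 CPM (-1.13 ± 0.14, and -0.87 against WT1 alone). All 3 Klra genes were thus lower in each knockout sample than in any wild type one.

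The share of NK-like cells with a UMI of a Klra gene differed in the same direction. Klra4 was seen in 15%, 15.9% and 16.2% of knockout NK-like cells but in 38.2%, 51.1% and 40.1% of wild type ones. The exact 95% binomial interval was 10.9% to 19.9% in KO1 and 30.04% to 46.95% in WT1, for counting error only. In early erythroid-like cells, which should lack these receptors and had median depths of 5145 to 7946 UMIs, the share was 0% to 0.505%. None of Klra4, Klra7 and Klra8 was seen in 56.2%, 58.8% and 56.9% of knockout NK-like cells and in 37.5%, 26.5% and 26.0% of wild type ones. All 3 were seen together in 5.77%, 3.53% and 5.62% of knockout and 16.2%, 26.0% and 14.1% of wild type NK-like cells.

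When each cell was thinned to 2000 UMIs, which left out 12 to 31 cells in 5 samples and 140 in WT3, the share with none of the 3 genes was 58.1%, 62.7% and 61.9% in the knockout samples. It was 42.5%, 27.8% and 20.9% in the wild type samples. The groups stayed apart at equal depth, as they did for Klra4 alone, with 13.7% against 40.9% of cells on average.

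**Figure D2:**
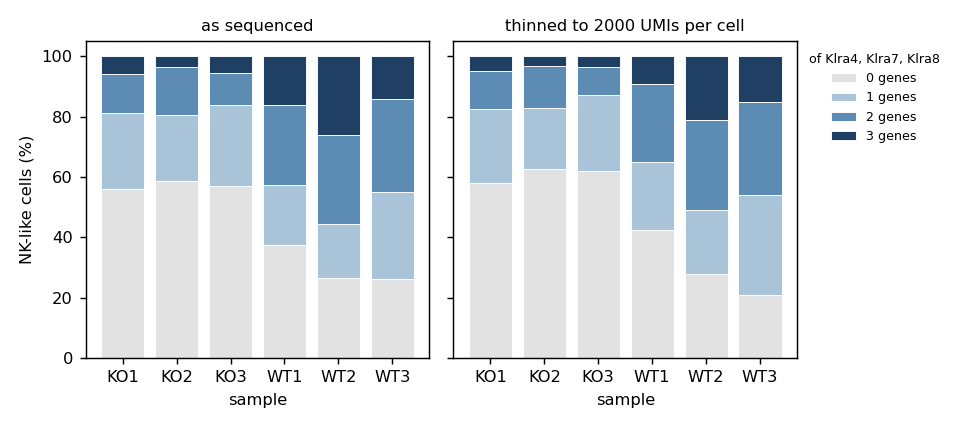
Share of NK-like cells (percent, y axis) in which 0, 1, 2 or 3 of Klra4, Klra7 and Klra8 had a UMI, per sample (x axis), as sequenced on the left and thinned to 2000 UMIs on the right. The pale part for 0 genes is 56.2% to 58.8% in the knockout samples and 26.0% to 37.5% in the wild type samples as sequenced.

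Klrb1b encodes an inhibitory NKR-P1 receptor for the ligand made by Clec2d. It went the other way from the Klra genes, at 294, 261 and 257 CPM in the knockout samples against 91.2, 115 and 67.8 CPM in the wild type samples. The groups were well apart, and the fitted log2 difference was 1.53 ± 0.16 and stayed between 1.31 and 1.84 in all 17 alternatives run. It was seen in 48.8%, 48.8% and 44.4% of knockout NK-like cells and in 19.1%, 20.1% and 12.5% of wild type ones. In early erythroid-like cells the share was at most 0.952%. Thinned to 2000 UMIs, the mean NK-like shares were 34.3% ± 3.80 and 13.1% ± 3.56 (SD, n = 3 each).

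The other NKR-P1 genes overlapped between the genotypes over the whole class. Klrb1c, which encodes the NK1.1 antigen used to mark NK cells, was at 892, 741 and 810 CPM in the knockout samples and 872, 807 and 794 CPM in the wild type samples, with overlapping groups and a log2 difference of -0.07 ± 0.11. Klrb1a was at 205, 182 and 194 CPM against 199, 229 and 236 CPM, also overlapping (-0.25 ± 0.13). With WT1 left out the log2 difference of Klrb1c was 6.88e-04.

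Klrk1 encodes NKG2D, the activating receptor for stress-induced ligands. It was at 1003, 1082 and 1087 CPM in the knockout samples and 1145, 1227 and 1193 CPM in the wild type samples, which did not overlap but differed by a log2 value of only -0.22 ± 0.10. Klrd1 encodes CD94, the partner of the NKG2A receptor encoded by Klrc1, and was at 1031, 975 and 935 CPM against 937, 997 and 1017 CPM (-0.05 ± 0.11). Klre1, whose product pairs with those of Klri1 and Klri2, was at 564, 532 and 595 CPM against 783, 702 and 780 CPM (-0.47 ± 0.11). The knockout samples were lower for Klre1 without overlap, and Klrd1 overlapped.

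Clec2i encodes Clr-g, a ligand of the NKR-P1F receptor and not itself a receptor of the Klr type. In NK-like cells it stood at 133, 139 and 112 CPM in the knockout samples and 56.1, 76.5 and 73.0 CPM in the wild type samples, a log2 difference of 0.84 ± 0.17. It was seen in 31.5%, 32.9% and 30.6% of knockout and 14.7%, 18.3% and 14.1% of wild type NK-like cells, with means of 22.7% and 10.6% after thinning. Early erythroid-like cells, which were deeper, had a UMI in 8.33% to 14.3% of knockout and 3.03% to 3.96% of wild type cells. After thinning, these early erythroid-like shares averaged 2.87% and 1.20%, and the groups overlapped.

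The NK-like class was divided over its sub-clusters in different proportions in each genotype. Whether these sub-clusters are different kinds of cell or the same cells with changed expression was not tested. The class joined 5 sub-clusters. Of these, sub-cluster 3 (led by Serpinb6b, Gzma and Qrfp) held 62.7%, 60% and 53.8% of knockout NK-like cells and 33.8%, 13.2% and 2.75% of wild type ones. Its highest wild type share was in WT1, which shares the title prefix XA with the knockout samples. Sub-cluster 1 (led by Ccl4, Tnfrsf9 and Tyrobp) held 12.7%, 9.41% and 10.6% against 47.1%, 61.6% and 69.4%. Sub-cluster 5 (led by Krt83, Ccdc184 and Ckb) held 20.4%, 26.5% and 30.6% against 12.5%, 12.8% and 8.26%. Like sub-cluster 12, it took no name against the other T, NK and ILC2 cells and was named NK-like against all cells. In sub-cluster 5 the first comparison had 2 of 12 NK markers raised and the second 6 of 12. Sub-clusters 9 and 12 held the rest, and sub-cluster 9 had 1 cell in each knockout sample. The part of this makeup in the differences above was not tested, and the values within sub-clusters follow.

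Sub-cluster 5 had almost no transcripts of these Klra genes in either genotype. Over its 219 cells and 612977 UMIs there were 0 counts of Klra4, 0 of Klra8 and 1 of Klra7, where a count of 0 allows up to 4.89 CPM. The same cells had 304 counts of Klrb1b. Klrb1b was at 558, 467 and 526 CPM in the knockout samples and 371, 546 and 321 CPM in the wild type samples there, with overlap. Clec2i was likewise high in both, at 184, 202 and 139 CPM against 175, 199 and 107 CPM. In this sub-cluster neither gene separated the genotypes.

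In sub-cluster 3 Klrb1b did separate them. It was at 252, 224 and 167 CPM in KO1, KO2 and KO3 and at 48.1, 9.88 and 0 CPM in WT1, WT2 and WT3, where the wild type values rest on 7, 1 and 0 counts in 46, 29 and 9 cells. In sub-cluster 1 it was at 136, 142 and 114 CPM against 52.0, 55.2 and 49.9 CPM, again apart. Lower in the knockouts there without overlap were Klre1, at 652, 632 and 683 CPM against 765, 741 and 829 CPM, and 2 genes that overlapped over the whole class. Klrb1a was at 195, 205 and 114 CPM against 246, 253 and 235 CPM, and Klrb1c at 740, 695 and 601 CPM against 883, 814 and 751 CPM. Klra4 in sub-cluster 3 was at 370, 262 and 348 CPM in the knockout samples and at 914 and 879 CPM in WT1 and WT2. WT3, with 7 counts, stood at 283 CPM, so that the groups overlapped. In sub-cluster 1 Klra4 was at 127, 253 and 504 CPM against 477, 1028 and 966 CPM, overlapping only through KO3 and WT1. Klra7 and Klra8 overlapped between the genotypes in both sub-clusters, and Clec2i did too.

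**Figure D3:**
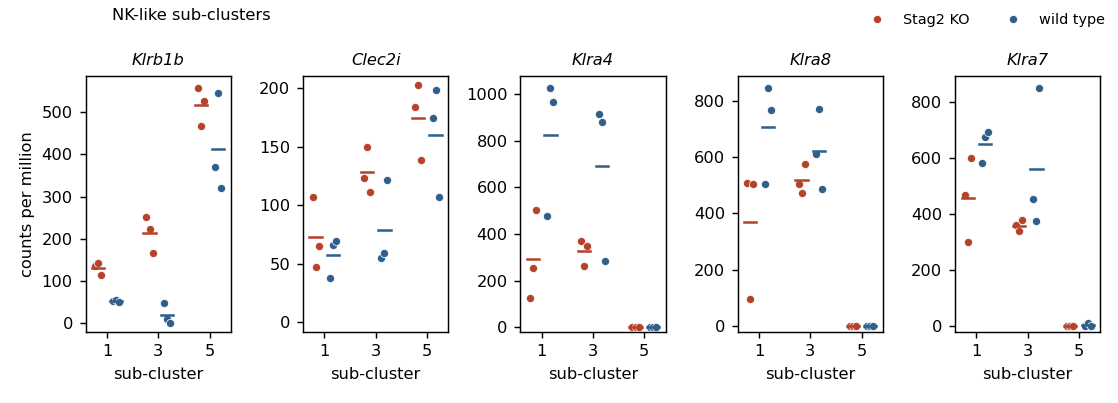
Levels of 5 genes (CPM, y axes differ) in the 3 largest NK-like sub-clusters (x axis); points are samples and bars are means of 3. Klrb1b is apart between the genotypes in sub-clusters 1 and 3 and not in sub-cluster 5, where the Klra genes are at or near 0.

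With sub-clusters 5 and 12 left out of the NK-like class, a choice made after seeing the data, the log2 differences were -1.49 for Klra4, -0.77 for Klra7, -0.60 for Klra8, -0.24 for Klre1, 1.84 for Klrb1b and 0.93 for Clec2i. These 6 kept their direction, and the Klra8 and Klre1 differences were over 1.5 times smaller than with those cells. Of the other 4, Klrb1a was -0.31 and Klrb1c -0.16, Klrk1 was over 1.5 times smaller at -0.14, and Klrd1 changed sign, from -0.05 to 0.10.

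Genes of the complex outside the 10 were tested in the same fit. Of 35 listed, 31 were in the tables and 14 passed the filter on low counts. In knockout NK-like cells 2 rose and 4 fell at an edgeR adjusted p of 0.05, where 0.771% and 1.35% of all genes did. Their median log2 difference was -0.20. The list was drawn up with earlier results of these data known, so nothing is read from the counts. Klri2, whose product pairs with that of Klre1, fell from 241, 299 and 260 CPM in the wild type samples to 58.3, 98.9 and 95.03 CPM in the knockout samples (-1.75 ± 0.17, edgeR adjusted p = 7.44e-07). That call held in all 17 alternatives. The receptor Klrc1 (NKG2A), which binds Klrd1's product, gave 232 ± 56.3 against 314 ± 24.6 CPM (SD, n = 3 each, edgeR adjusted p = 0.159), and Klrc2 gave 267 ± 12.97 against 308 ± 15.3 CPM (edgeR adjusted p = 0.510). Klrc1 passed without the low-count filter (0.0432) and without KO2 (0.0164).

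The other Ly49 genes that changed also fell. Klra1 (Ly49A) was at 34.2 ± 16.8 CPM in the knockout and 102 ± 19.8 CPM in the wild type samples (-1.59 ± 0.24, edgeR adjusted p = 3.55e-04). Klra9 (Ly49I) was at 148 ± 15.3 against 258 ± 55.0 CPM (-0.88 ± 0.15, edgeR adjusted p = 9.92e-04) and Klra3 (Ly49C) at 101 ± 7.80 against 156 ± 30.4 CPM (-0.69 ± 0.15, edgeR adjusted p = 0.0168). Against WT1 alone these calls ended, at edgeR adjusted p of 0.0861, 0.265 and 0.741. The 2 that rose, Styk1 (0.91 ± 0.17, edgeR adjusted p = 0.00381) and Magohb (0.85 ± 0.19, edgeR adjusted p = 0.0162), are not C-type lectin genes and lie beyond the Klra genes, and their calls also ended against WT1 alone (0.236 and 0.701). With DESeq2 the calls of Klra3, Styk1 and Magohb ended (adjusted p of 0.389, 0.155 and 0.384). Those of Klra3 and Magohb ended also without KO1 (0.0987 and 0.0723) or WT2 (0.102 and 0.183), among other samples. Without sub-clusters 5 and 12 the calls of Klra9, Klra3 and Magohb ended as well (0.109, 0.214 and 0.108), and those of Klra1 and Styk1 did not. Clec2d (edgeR adjusted p = 0.846) and Cd69 (0.766) did not pass in edgeR.

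Adaptor proteins carry the signal of the activating receptors. Of 16 listed adaptor and signalling genes, all tested, 2 fell and none rose in knockout NK-like cells. Among all genes tested 1.35% fell and 0.771% rose. The adaptor, ligand and effector lists were also drawn up with earlier results known, and nothing is read from the counts of calls in them. Tyrobp, which encodes the DAP12 adaptor of Ly49D, Ly49H and NKG2D, fell from 3862 ± 259 to 2818 ± 147 CPM (-0.50 ± 0.09, edgeR adjusted p = 0.00276). Fcer1g fell from 2952 ± 203 to 2316 ± 66.9 CPM (-0.40 ± 0.10, edgeR adjusted p = 0.0254). With the title prefix as a covariate both calls ended (edgeR adjusted p of 0.102 and 0.236), as they did without sub-clusters 5 and 12 (0.108 and 0.175), and that of Fcer1g ended also without any single knockout sample and with DESeq2 (adjusted p = 0.0559). None of 6 tested ligand genes passed. Of 27 tested effector and regulator genes, 5 fell and none rose, among them Ccl5 (-1.19 ± 0.12, edgeR adjusted p = 2.09e-06), the cytotoxic protease gene Gzmb (-1.42 ± 0.22, edgeR adjusted p = 3.72e-04) and Cd160 (-1.03 ± 0.19, edgeR adjusted p = 0.00312). Against WT1 alone the calls of Gzmb and Cd160 ended (edgeR adjusted p of 0.511 and 0.0871) and that of Ccl5 did not. The Cd160 call ended also without KO1 (0.0722) and without WT2 (0.0692). Within the same cells the summed NK marker genes were 11030 to 12195 CPM in the knockout and 12231 to 16178 CPM in the wild type samples, and the summed T markers 1225 to 1332 against 1541 to 1547 CPM. The T cell gene Cd3g was at 1.19, 3.24 and 22.8 CPM in the knockout and 30.4, 91.8 and 102 CPM in the wild type sums, against 886 to 1229 CPM in T-like cells. Cd3e was at 1.62 to 14.3 CPM, with overlap, against 413 to 521 CPM in T-like cells. The part of these markers in the differences was not tested.

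T-like cells carried most of the same receptors at lower levels. These cells numbered 148, 135 and 82 in the knockout and 331, 427 and 685 in the wild type samples. In them 7 of the 10 genes passed the filter and 0 passed an adjusted p of 0.05, where 0.423% of the 5668 genes tested did (0.194% upward and 0.229% downward). The groups did not overlap for 3 of the 7, above for 1 and below for 2, where 10.2%, 5.01% and, together, 15.2% of all genes were so. Here too nothing is read from the counts, as the genes were chosen for this contrast. Klra7 was at 169, 151 and 135 CPM against 215, 206 and 198 CPM, apart and lower in the knockouts (-0.51 ± 0.13). Klrb1a was at 11.8, 6.46 and 0 CPM against 38.0, 25.0 and 24.1 CPM (-2.02 ± 0.48), which rests on few counts. Clec2i was at 124, 90.4 and 92.3 CPM against 89.6, 76.2 and 63.2 CPM (0.38 ± 0.19), apart by less than 1 CPM, and against WT1 alone the difference was 0.08. T-like sub-cluster 0 (led by Cym, Trdc and Tcrg-C2) held 55, 46 and 31 of the knockout and 183, 216 and 313 of the wild type cells. Within it Klra7 was at 381, 306 and 223 against 360, 337 and 373 CPM, with overlap, and Clec2i overlapped too. Klrb1a and Klrk1 were lower there without overlap. The part of the makeup of the T-like class in these differences was not tested.

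Klrb1c, Klrk1, Klrd1 and Klre1 overlapped between the genotypes in T-like cells, with log2 differences of -0.22 to -0.36. None of 12 tested neighbours passed, and Klrc1 gave 134 ± 23.8 against 215 ± 52.4 CPM (-0.72 ± 0.19, edgeR adjusted p = 0.111). It did pass without the low-count filter (1.33e-04) and without WT3 (0.0254). Against WT1 alone the log2 difference of Klrc1 was -1.10. With the title prefix as a covariate, which also sets the knockouts against WT1, it was -1.09. Klra9 (edgeR adjusted p = 0.669) and Klra3 (0.983) did not pass in edgeR. Fcer1g was the only adaptor gene of 13 that passed, where 0.423% of all genes did. It fell from 648 ± 93.2 to 404 ± 66.5 CPM (-0.75 ± 0.14, edgeR adjusted p = 0.0109). That call ended with doublet-scored cells kept (edgeR adjusted p = 0.313), without KO3 (0.0984) and without WT3 (0.0525). Tyrobp did not pass (-0.75, edgeR adjusted p = 0.0954). It did without the low-count filter (2.11e-07), with Cd3 gates (0.0262) and without WT2 (0.00984). The log2 difference of Tyrobp was -1.20 against WT1 alone and -1.19 with the title prefix as a covariate, which is the same contrast.

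NK-like and T-like cells of the same sample could be compared with a test, because the genes were chosen by genotype and the classes were made without them. Klrb1b, Klra4 and Klra8 had too few counts in T-like cells to pass the filter there and entered only through the NK-like cells, where they are high, so their levels are given with no test. Of the 7 genes that passed the filter within each class, 6 were higher in NK-like cells in edgeR with the sample as a block and in all 6 samples, where 9.66% of the 5301 genes tested passed in that direction, 11.7% in the other and 21.4% in either. Among all genes tested 23% were higher in 6 of 6 samples. The mean level of Klra4 was 489 ± 307 CPM in NK-like and 9.66 ± 8.77 CPM in T-like cells (SD, n = 6). Klra8 gave 478 ± 182 against 10.2 ± 5.11 CPM. Klra7, the third Ly49 gene, was at 416 ± 178 against 179 ± 32.6 CPM (1.02 ± 0.10, edgeR adjusted p = 1.65e-09).

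Klrb1b was nearly absent from T-like cells. It had 717 counts in NK-like cells and 2 in T-like cells, a ratio of CPM of 508 with an exact 95% counting interval of 140 to 4204. Klrb1a was 207 ± 21.2 against 17.5 ± 14.0 CPM (3.04 ± 0.17, edgeR adjusted p = 7.30e-15) and Klrb1c 819 ± 54.8 against 162 ± 27.8 CPM (2.06 ± 0.07, edgeR adjusted p = 7.10e-20). Klrk1 differed by 0.98 ± 0.06, Klrd1 by 1.12 ± 0.06 and Klre1 by 1.43 ± 0.08 (edgeR adjusted p of 1.20e-13, 9.78e-15 and 2.51e-15). Clec2i did not pass, at 98.4 ± 34.6 against 89.2 ± 20.2 CPM (-0.12 ± 0.12, edgeR adjusted p = 0.593), though 5 of 6 samples had the higher CPM in NK-like cells.

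Among the neighbours, 11 passed the filter within each class, of which 7 were higher in NK-like cells and 3 lower, where 9.66% and 11.7% of all genes were. Klrb1f, the receptor for Clr-g (2.69 ± 0.12, edgeR adjusted p = 1.78e-17), was among the higher ones, and Klra6 was lower (-2.03 ± 0.25, edgeR adjusted p = 1.78e-07). Adaptor and effector genes entered the clustering, so their difference between these classes is not given as a test.

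**Figure D4:**
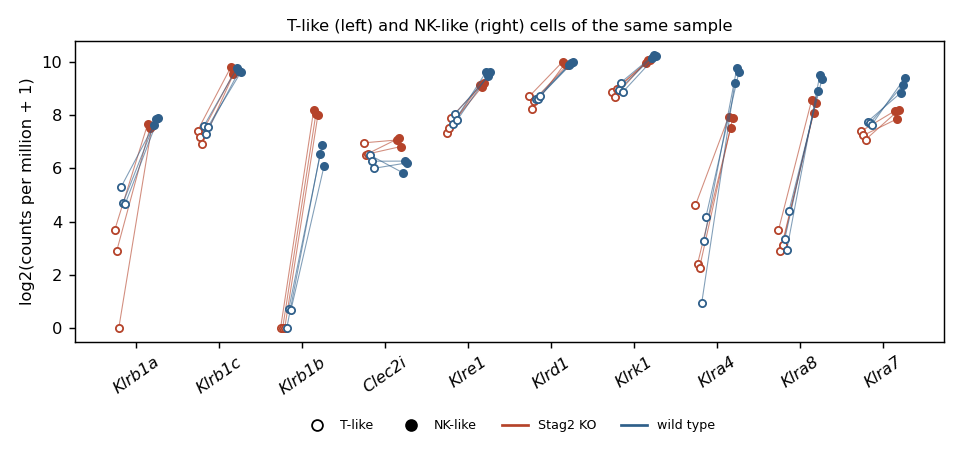
Levels of the 10 genes as log2(CPM + 1) in T-like (open) and NK-like (filled) cells, with a line joining the 2 classes of each sample. All lines rise for the 9 receptor genes; for Clec2i 5 of 6 lines rise, with levels of 63.2 to 124 CPM in T-like and 56.1 to 139 in NK-like cells.

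In progenitor-like cells, which joined stem and multipotent, lymphoid, granulocyte and early erythroid progenitors, the receptors were close to absent. Klrb1a, Klrb1b, Klra4, Klra7 and Klra8 did not pass the filter and stood at 0 to 1.65 CPM in every sample. Of the 5 that passed it, 1 was past an adjusted p of 0.05 upward (Clec2i) and 2 downward (Klrd1 and Klre1), where 2.14% and 4.1% of 11035 genes were (6.23% together). Of the 5, the same 3 were those whose groups did not overlap, where 12.9% of genes were above, 11.1% below and 24% either. Nothing is read from these counts, because the genes were chosen for this contrast. Klre1 was at 0.146, 0.713 and 0.353 CPM against 2.36, 1.16 and 1.94 CPM, on 11 and 38 counts. In the same sums the T cell gene Cd3g was at 0.0882 to 0.856 CPM in the knockout and 2.32 to 3.87 CPM in the wild type samples and the NK gene Gzma at 1.15 to 2.42 against 3.23 to 4.18 CPM. The part of such transcripts in the Klre1 value was not tested.

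Klrd1 was at 5.54, 7.70 and 6.61 CPM in knockout and 18.4, 13.4 and 18.0 CPM in wild type progenitor-like cells (-1.37 ± 0.18). Lymphoid progenitor-like cells, where it was highest among the 4, made up 11.4% to 12.05% of knockout and 21.2% to 30.7% of wild type progenitor-like cells. Within them Klrd1 was at 61.3, 77.6 and 79.5 CPM against 64.6, 69.9 and 94.7 CPM, and the groups overlapped. Klrd1 was also carried by dendritic-like cells, at 139, 140 and 124 CPM against 150, 178 and 141 CPM, apart by less than 1 CPM. Klrk1 in dendritic-like cells was at 21.6, 16.3 and 17.7 CPM against 45.1, 49.2 and 42.8 CPM, lower in the knockouts without overlap (-1.34 ± 0.15).

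Clec2i was counted in progenitor and myeloid classes as well as in NK-like and T-like cells. Over the 11 classes in which each sample held 20 cells or more, its level ranged from 3.06 CPM (mean of 6 samples) in megakaryocyte-like to 98.4 CPM in NK-like cells. NK-like (98.4 ± 34.6 CPM, SD, n = 6), T-like (89.2 ± 20.2), lymphoid progenitor-like (84.0 ± 59.4), ILC2-like (83.6 ± 19.1) and basophil/mast-like cells (79.3 ± 32.0) had the highest means. Each SD here spans both genotypes. In the wild type samples the means were, in that order, 68.5 ± 10.9, 76.3 ± 13.2, 31.5 ± 3.69, 80.4 ± 19.4 and 50.3 ± 0.443 CPM. In the knockout samples they were 128 ± 14.3, 102 ± 18.6, 136 ± 23.3, 86.8 ± 22.4 and 108 ± 5.70 CPM. Dendritic-like (45.9 ± 22.98) and monocyte-like cells (37.1 ± 25.2) came next, and early erythroid-like (12.02 ± 8.41), HSC/MPP-like (6.38 ± 5.21, stem cells and multipotent progenitors) and granulocyte progenitor-like cells (6.01 ± 2.92) were lower still.

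In 9 of those 11 classes every knockout sample was above every wild type sample, and in none was the order the reverse. The share of all genes above in that way was 9.81% in NK-like, 10.2% in T-like, 11.2% in lymphoid progenitor-like, 5.87% in ILC2-like, 24.9% in basophil/mast-like, 16.7% in dendritic-like and 13.7% in monocyte-like cells. It was 11.3% in early erythroid-like, 11.3% in HSC/MPP-like, 14.2% in granulocyte progenitor-like and 8.46% in megakaryocyte-like cells. Since the gene was chosen for this contrast, nothing is read from the count. Lymphoid progenitor-like cells showed 121, 163 and 126 CPM in the knockout samples and 29.3, 29.5 and 35.8 CPM in the wild type samples (log2 difference 2.02 ± 0.17). Monocyte-like cells showed 63.2, 65.7 and 49.0 against 21.3, 11.1 and 12.2 CPM (2.06 ± 0.20).

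Basophil/mast-like cells gave 108, 114 and 103 CPM against 50.5, 49.8 and 50.6 CPM (0.98 ± 0.09), with the smallest standard error of the fitted differences. HSC/MPP-like cells gave 14.9, 7.58 and 9.06 CPM against 1.01, 2.06 and 3.67 CPM (2.11 ± 0.43). The ILC2-like class overlapped, at 91.5, 62.4 and 106 CPM against 77.2, 62.8 and 101 CPM (0.19 ± 0.30), and megakaryocyte-like cells had too few counts to be fitted. Over the progenitor-like classes together the difference was 1.12 ± 0.16.

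**Figure D5:**
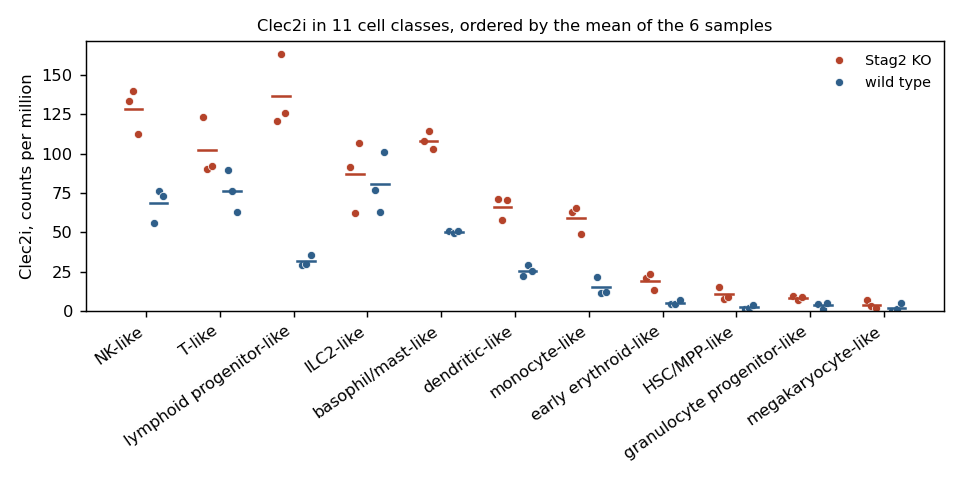
Clec2i level (CPM) in 11 cell classes, ordered by the mean of the 6 samples; points are samples and bars are means of 3. Knockout points lie above all wild type points in 9 classes; in ILC2-like and megakaryocyte-like cells the groups overlap.

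Among the single classes, the overlapping gene BC035044 was higher in every knockout sample only in granulocyte progenitor-like cells. There it was at 161, 156 and 138 CPM against 125, 115 and 92.5 CPM. In monocyte-like cells it was at 338, 237 and 326 CPM in the knockout and 257, 300 and 280 CPM in the wild type samples, and in basophil/mast-like cells at 18.8, 16.3 and 14.3 against 20.3, 11.1 and 13.9 CPM. Its groups overlapped in both, where those of Clec2i did not. Over the progenitor-like classes together BC035044 too was higher in the knockouts, at 143, 137 and 120 against 116, 104 and 105 CPM. Within HSC/MPP-like, lymphoid progenitor-like and early erythroid-like cells its groups overlapped. Its part in the Clec2i counts was not tested. Clec2d, the neighbouring ligand gene for Klrb1b's product, went the other way in progenitor-like cells, from 50.5 ± 9.55 to 27.3 ± 2.92 CPM (-0.90 ± 0.14, edgeR adjusted p = 0.00198). H2-T23, which encodes the class I ligand of the CD94 and NKG2 receptors, also fell there, from 115 ± 13.7 to 84.2 ± 8.95 CPM (-0.46 ± 0.11, edgeR adjusted p = 0.0247). That call ended without any 1 of KO1, KO3, WT1 and WT2 (edgeR adjusted p of 0.0536 to 0.146). Granulocyte progenitor-like cells made up 39.0% to 42.5% of knockout and 16.5% to 33.9% of wild type progenitor-like cells, and lymphoid ones a smaller part in the knockouts. The part of this makeup in the BC035044, Clec2d and H2-T23 differences in progenitor-like cells was not tested.

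Outside NK-like cells Klrb1b was rare. In basophil/mast-like cells it was at 9.70, 9.03 and 7.55 CPM in the knockout samples and 3.18, 2.68 and 1.30 CPM in the wild type samples (1.84 ± 0.31), on 111 and 29 counts. In the same sums the NK gene Ncr1 was at 0 to 0.612 CPM in the knockout and 0.796 to 2.11 CPM in the wild type samples. In T-like cells, lymphoid progenitor-like and HSC/MPP-like cells Klrb1b had 2, 0 and 0 counts.

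Across all kept cells, 8 of the 10 genes were lower in every knockout sample than in any wild type sample and 2, Klrb1b and Clec2i, were higher, where 13.2% and 17.2% of all genes were so. As the genes were chosen for this contrast, nothing is read from these counts either. The Klra genes were carried mostly by NK-like and T-like cells. The NK-like share of kept cells was 6.03%, 7.13% and 4.40% in the knockout and 5.64%, 5.14% and 5.10% in the wild type samples, overlapping (2-sided exact permutation p = 0.6, adjusted 0.6 over 2 tests). T-like cells made up 3.43%, 5.66% and 2.25% of kept knockout and 13.7%, 10.0% and 10.7% of kept wild type cells (exact permutation p = 0.1, the smallest 3 against 3 samples can give, adjusted 0.2). In sums over all cells, fewer cells of a type and less RNA per cell cannot be told apart.

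Outside the complex, the genes whose pattern over 66 class and sample sums was most like the summed level of the 10 were Ptprc (Pearson r = 0.94), Ms4a4b (0.93), Sp100 (0.92), Klf2 (0.91) and Cd28 (0.89), of 6535 genes at 10 CPM or more in NK-like cells. These sums share libraries and classes, and the values are a description.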

How the data were processed

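Per the labels, libraries of polyA RNA were prepared with 10x Chromium 3' V2 chemistry. The authors deposited 1 table of raw UMI counts for each of the 6 samples, cells by genes; their own cluster numbers in these tables were not used. The sources used here do not name the aligner, the counter or the genome build. The tables held 2604 to 7053 cells and 16155065 to 36248233 UMIs each. The labels do not say that samples are separate animals, and p-values measure the spread between these samples.

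The 10 genes, the gene lists and the tests were chosen with earlier results of these data known. Cells needed 500 genes and no more than 20% mitochondrial counts, and the highest doublet scores were removed (0.8% per 1000 cells). Cells of all samples were clustered jointly on 2000 variable genes without any gene of the complex (30 principal components, 15 neighbours, Leiden resolution 1), and T and NK clusters were clustered again. A cluster was named for the type with the largest share of its fixed markers raised 2-fold and to 20 CPM (at least 3 markers and 1 in 3), unless markers of a different type that also met this minimum were more frequent among the top 10 genes; that type then gave the name. T, NK and ILC2 sub-clusters were named against each other first and, where that gave no name, against all cells. A sub-cluster lost its name if its median depth was under 1 in 3 of its samples' medians and no marker of its type was among its leading genes. By this rule sub-clusters 11 and 14, otherwise NK-like, were left unnamed and out of the NK-like class. Sub-cluster 14 held 28 cells of WT2 and 1 or 2 of each other sample. By their leading genes, NK-like sub-cluster 12 was named over a larger share of T markers (12 of 17 against 8 of 12), NK-like cluster 28 over a larger share of ILC2 markers (5 of 9 against 6 of 12), and dendritic-like clusters over larger shares of monocyte (2 clusters) or HSC/MPP markers (1 cluster). Names rebuilt here may differ from the study's.

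Raw counts were summed per sample and class. The quasi-likelihood test of edgeR was run on these sums, with TMM normalization, a filter on low counts and Benjamini-Hochberg adjustment over all genes tested. The SE of a fitted log2 difference is its size divided by the square root of the F statistic of that test. It is derived from the test and not a separate estimate of spread. NK-like and T-like sums of a sample were compared with the sample as a block. Shares of cells were compared by exact permutation over 20 assignments. Exact 95% intervals, and the floor of 3 counts, reflect counting error and nothing else. Named genes were the 10, up to 6 neighbours per comparison by p plus Klrc1, Klrc2, Clec2d, Cd69, Klra3 and Klra9, and up to 4 genes per other list; not all that the rule allows are named. BC035044, Cd3e, Cd3g, Gzma, Ncr1 and the values per sub-cluster were chosen after their values were seen. On counts simulated for the NK-like comparison (5574 genes) the test recovered 49% of 2-fold and 100% of 4-fold changes, and called 7 unchanged genes. The changed genes were drawn only from those with higher counts, and all genes were given the same dispersion. Recovery at lower counts or at the spread of the real samples was therefore not tested. The alternatives tried were DESeq2, RLE normalization, no filter, the prefix of the sample titles (its meaning is not given) as a covariate, the 4 XA samples alone, each sample left out, sub-cluster resolutions of 0.5 and 2, doublets kept, clusters made with the complex's genes, Cd3 gates, and no block. The prefix as a covariate and the XA samples alone both set the knockout samples against WT1, so they are not separate checks. Software was Python 3.11.15, scipy 1.17.1, scikit-learn 1.9.0, leidenalg 0.10.2, R 4.3.3, edgeR 4.0.16 and DESeq2 1.42.0.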

Additional observations from a re-analysis of the deposited data

Results flagged for a closer look

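H2-T23, which encodes the class I molecule bound by CD94 and its NKG2 partners, moved in opposite ways in different classes. In NK-like cells it was at 155, 190 and 181 CPM in the knockout and 224, 229 and 218 CPM in the wild type samples, lower in every knockout sample. In T-like cells it was at 267, 278 and 258 against 206, 191 and 203 CPM, higher in every knockout sample. The log2 difference in T-like cells minus that in NK-like cells was 0.756. In progenitor-like cells it was at 75.7, 93.5 and 83.3 against 125, 120 and 99.3 CPM, lower again, and the log2 difference there minus that in T-like cells was -0.811. The difference between the classes was not tested. Within the classes the gene passed in edgeR in progenitor-like cells (adjusted p = 0.0247) and not in NK-like (0.159) or T-like cells (0.279).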

How the results depend on the processing

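In NK-like cells 118 genes were called between the genotypes. DESeq2 called 40 (38 shared), no low-count filter 182, the title prefix as a covariate 18, the 4 XA samples alone 66, and the class without sub-clusters 5 and 12, added after seeing the data, 66. Leaving out 1 sample gave 48 (without KO1) to 150, with 56 without WT2 and 77 without KO3. The share of higher calls was 36.4%, but 25% with DESeq2 and 22.2% with the prefix. In T-like cells 24 genes were called, 15 with DESeq2, 113 without the filter, 82 in the XA samples and 19 to 47 (without WT1) with 1 sample left out. In progenitor-like cells the count was 688, 1218 without the filter and 340 (without KO1) to 1013 with 1 left out, with 344 without WT2 and 400 without KO3. NK-like against T-like cells gave 1133, and 883 to 1122 with 1 left out. The cause of these moves was not tested.

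No paired analysis was possible because the numbers of the knockout and wild type samples follow the order of the records and pair no samples. For NK-like against T-like cells, fitted with the sample as a block, no replicate block gave 909 calls and ended that of Klrc1 (edgeR adjusted p = 0.244). Of the 7 genes among the 10 that passed the filter within each class, the same 6 were higher in NK-like cells, and Clec2i again did not pass.

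The NK-like share differed by 0.555 percentage points (knockout minus wild type), and by -0.0840 without KO2 to 1.28 without KO3; the T-like share differed by -7.70, and by -8.64 to -6.58 with 1 sample left out. These log2 differences, none past the threshold, changed sign. In T-like cells Cd69 was 0.00481 with RLE, 0.00430 at resolution 0.5, 0.00383 with the complex's genes clustered and -0.36 to 0.233 with 1 sample left out. Clec2d there was -0.00743 with DESeq2, -0.0378 without the filter, -0.132 with the prefix, -0.142 in the XA samples, -0.0222 with Cd3 gates and -0.11 to 0.135 with 1 left out. H2-D1 was -0.0269 without the filter, -0.0547 with doublets kept, -0.0127 with Cd3 gates and -0.0241 to 0.0779 with 1 left out. With doublets kept H2-K1 was -0.0127, Klra3 0.0762, Klrb1f 0.0643 and Klrc2 -0.0112; Klrb1f was 0.0436 with Cd3 gates. With 1 left out Klra3 was -0.276 to 0.0999 and Klrc2 -0.0482 to 0.172. In progenitor-like cells H2-K1 was 0.00938 with the prefix and 0.0154 in the XA samples, and Klrb1f -0.151 with doublets kept. Clec2d in NK-like cells was -0.299 to 0.0501, and Clec2i in NK-like against T-like cells -0.224 to 0.00604, with 1 left out. Of all recomputed values 1403 kept their direction and side of the threshold. Genes under the count filter were not testable at this depth, which for Klrb1b, Klra4 and Klra8 holds in T-like cells.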
